A study of Mus musculus with 62 samples.

Results

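The soleus (SOL) and the gastrocnemius (GC) of mice whose skeletal muscle lacks functional ChREBP were compared, to ask which differences between the muscles persist without this factor. ChREBP, the product of Mlxipl, is a glucose-responsive transcription factor. The members were 10 RNA-seq libraries of the 62 in the series: 5 SOL and 5 GC libraries of ChMKO mice, which carry the genotype ChREBP-flox;Mck-cre and ate normal chow with no other treatment. They were chosen by muscle and genotype, and each SOL library was paired with the GC library of the same number, read here as a mouse number (59, 60, 61, 72 and 74). The comparison group was the 10 chow-fed F/F libraries, 5 of each muscle, from littermates with the floxed Mlxipl gene and no Cre (57, 58, 69, 70 and 71). Both genotypes carry the floxed allele. The study's methods name males of 8 to 10 weeks as the general rule, and age and sex are not given for each library. The Cre is driven by the muscle creatine kinase promoter, so recombination is limited to striated muscle cells and the other cells of the tissue keep the gene. The loxP sites flank exon 8, and transcripts without that exon still count toward the gene. The hypoxia, high-fructose diet, AAV and C2C12 cell libraries of the series were not analysed here. Of 29239 gene symbols, 13080 had a mean of at least 0.5 FPKM (fragments per kilobase of gene, scaled to the mapped total) over the 10 ChMKO libraries and were tested.

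A skeletal muscle is a mosaic of fibers that differ in speed and fuel. Slow, type I fibers use the myosin heavy chain of Myh7 and slow troponins, are rich in mitochondria and myoglobin, and burn fatty acids. Fast fibers use the myosins of Myh2 (IIa), Myh1 (IIx) and Myh4 (IIb), and the IIb fibers rely on glycogen and glycolysis. The mouse SOL is a postural muscle of mostly slow and IIa fibers, and the GC is a mainly fast muscle. ChREBP and its relative MondoA (Mlxip) bind DNA with the partner Mlx at paired CACGTG-like boxes and are best known for switching on glycolytic and lipogenic genes when glucose is plentiful.

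The estimated depth, read from the smallest FPKM steps of short genes, was 16.4 to 19.8 M fragments per library. Correlations of log2(FPKM + 1) between libraries of a group were 0.983 to 0.988 in the GC and 0.988 to 0.993 in the SOL of ChMKO mice. The first principal component held 67.5% of the variance and separated the muscles in both genotypes. On the second component (6.79%) the GC library of F/F mouse 69 and the SOL library of F/F mouse 71 stood apart. The former had the highest summed Schwann cell markers of the F/F libraries (364.5 FPKM, the others 10.9 to 92.8), and the latter the lowest fibroblast sum (124 FPKM, the others 163 to 418). Because these 2 libraries stood apart, the F/F counts and list medians were also computed without these 2 mice. No ChMKO library stood apart on these components, but the GC library of ChMKO mouse 72 was the highest of the 5 for most slow-fiber genes, as given with each.

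In ChMKO mice, SOL and GC differed in 1020 genes, of which 630 were higher in SOL and 390 lower. A gene was called where limma's adjusted p was under 0.05 and the fold change was at least 1 on the log2(FPKM + 1) scale, in a fit that blocked on mouse number. These were 7.80% of the genes tested, or 4.82% higher and 2.98% lower. By adjusted p alone, 39.5% of the genes were higher and 16.1% lower. The libraries of the muscles did not overlap, all 5 SOL values above all 5 GC values, for 30.2% of the genes, and lay wholly below for 12.8%. The median of all genes was 0.15 higher in SOL, and rescaling each library by its median ratio moved that median to 0.01 and the calls to 447 higher and 517 lower. The share of calls that were higher, 61.8% before and 46.4% after, thus depended on the scaling. Differences below are SOL minus GC in ChMKO mice unless another group is named. Because these are whole muscles, more fibers of a type and more RNA per fiber cannot be told apart.

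The contractile genes showed the widest differences, and the promoters of 2 pairs of them are shown because the members of each pair moved in opposite directions. Windows are the 250 bases before the start in RefSeq (GRCm38). Capitals mark CATTCC, the MCAT box bound by Tead factors, on either strand.

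Myh7: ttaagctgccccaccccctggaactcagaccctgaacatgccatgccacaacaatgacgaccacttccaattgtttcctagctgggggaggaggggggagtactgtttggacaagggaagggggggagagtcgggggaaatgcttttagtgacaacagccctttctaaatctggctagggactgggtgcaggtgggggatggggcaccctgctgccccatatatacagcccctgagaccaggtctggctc

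Myh4: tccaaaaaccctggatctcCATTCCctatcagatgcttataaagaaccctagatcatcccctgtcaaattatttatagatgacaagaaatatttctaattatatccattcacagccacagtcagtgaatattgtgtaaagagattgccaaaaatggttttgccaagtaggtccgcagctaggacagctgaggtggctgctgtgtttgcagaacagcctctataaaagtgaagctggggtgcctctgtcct

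Tnnc1: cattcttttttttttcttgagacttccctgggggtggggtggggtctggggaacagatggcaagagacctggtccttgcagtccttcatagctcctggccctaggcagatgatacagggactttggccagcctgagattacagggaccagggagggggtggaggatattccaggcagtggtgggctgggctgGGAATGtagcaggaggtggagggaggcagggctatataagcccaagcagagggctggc

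Tnnc2: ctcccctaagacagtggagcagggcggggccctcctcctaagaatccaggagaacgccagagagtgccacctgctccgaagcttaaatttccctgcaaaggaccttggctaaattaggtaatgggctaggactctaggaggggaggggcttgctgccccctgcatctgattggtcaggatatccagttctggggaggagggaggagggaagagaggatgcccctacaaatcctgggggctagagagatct

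The Myh7 window is chr14:54994550-54994799 on the minus strand, the Myh4 window chr11:67237562-67237811 on the plus strand, the Tnnc1 window chr14:31208062-31208311 on the plus strand and the Tnnc2 window chr2:164779735-164779984 on the minus strand. CATTCC occurs once in the windows of Myh4 and Tnnc1 and not in those of Myh7 and Tnnc2, although the window of a second, more upstream Myh7 start holds 1. Of the tested genes, 9217 were matched to a promoter, and 12.9% held CATTCC in at least 1 window. The share was 15.5% of the 420 matched genes called higher in SOL and 13.4% of the 277 called lower. Of all promoter windows searched, which did not cover every chromosome, 12.6% held it. These are letter matches and were not tested against binding.

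Myh7 (chr14:54970684-54994549, minus strand), the slow myosin heavy chain, measured 6.80, 2.86, 0.227, 36.2 and 1.66 FPKM in the GC of mice 59, 60, 61, 72 and 74, and 2068, 1903, 1791, 1766 and 1833 FPKM in their SOL. All SOL libraries lay far above all GC libraries, and GC of mouse 72 was the highest of its group. The difference was 8.50 ± 0.62 (SE) on the log2 scale (limma adjusted p = 3.86e-05), and it was 9.23 without mouse 72. The 2 non-coding genes that overlap Myh7 on the other strand rose with it, Mhrt by 9.05 and Gm31251 by 7.51, and since the counting is not stated to use strand their reads cannot be told apart from those of Myh7. Without mouse 72 the value of Mhrt was 9.80, and without mouse 61 it was 8.41.

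Myh4 (chr11:67237812-67260447, plus strand), the IIb myosin, ran the other way. It measured 11630, 13060, 9437, 11850 and 12610 FPKM in GC and 249, 496, 699, 61.02 and 66.9 FPKM in SOL, in the same order of mice. The groups did not overlap, but the SOL values spread widely, with mice 72 and 74 far below mouse 61. The difference was -5.82 ± 0.57 (SE) (limma adjusted p = 0.000146).

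The other fast myosins did not follow Myh4. Myh2, the IIa myosin, was 284 to 717 FPKM in GC and 2210 to 2567 FPKM in SOL, a rise of 2.37 ± 0.17 (SE) with no overlap (limma adjusted p = 3.97e-05). Myh1, the IIx myosin, measured 1263, 933, 1375, 842 and 898 FPKM in GC and 1350, 1169, 1293, 1474 and 1347 FPKM in SOL. These ranges overlapped, and the difference of 0.34 ± 0.13 (SE) did not pass the test (limma adjusted p = 0.0593). Myh8, the perinatal myosin, fell by 3.07, from a mean of 209 to 24.1 FPKM. Myh1, Myh2, Myh4 and Myh8 are similar neighbours on chromosome 11, and how reads shared between them were assigned is not stated.

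The slow-twitch sarcomere list (13 genes, all tested) rose as a whole: 13 of 13 were called higher, against 4.82% of all genes, with a median of 5.93 against 0.15 for all genes tested. Median differences within the 5 mice ran from 4.46 to 6.39. The calcium sensor Tnnc1 measured 10.1, 4.13, 1.45, 40.1 and 1.73 FPKM in GC and 2503, 2344, 2333, 2374 and 2418 FPKM in SOL. SOL was high and even across mice, and the GC values spread widely with mouse 72 at the top. Its difference was 8.44 ± 0.56 (SE) (limma adjusted p = 2.49e-05), or 9.08 without mouse 72. The troponin T gene Tnnt1 rose by 7.81 and the inhibitory troponin gene Tnni1 by 7.69. The slow light chains Myl3 and Myl2 rose by 6.42 and 5.93, slow tropomyosin Tpm3 by 6.36, and the ancient slow myosin Myh7b by 3.56. The smallest rise of the list was that of Mybpc1, a myosin-binding protein, at 1.62. With mouse 72 left out the list's median was 6.12, and all 13 stayed called.

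The fast-twitch sarcomere list (14 genes, all tested) fell less deeply. Of its members, 11 were called lower, against 2.98% of all genes, 1 was called higher (Myh2), and the median was -1.58. Tnnc2, the fast partner of Tnnc1, measured 16040, 16050, 15300, 15250 and 16230 FPKM in GC and 7251, 7010, 8562, 7020 and 7169 FPKM in SOL. The groups did not overlap, yet SOL kept a high level, and the difference was -1.09 ± 0.09 (SE) (limma adjusted p = 6.28e-05). Tnni2, the fast inhibitory troponin, fell by 1.21. Tnnt3, the fast troponin T, was lower by adjusted p with no overlap but within the fold limit (-0.81 ± 0.07 (SE), limma adjusted p = 7.76e-05), and it was called after rescaling (-1.003). The deepest falls of the list after Myh4 were those of Actn3, the fast-fiber alpha-actinin, at -4.92, and Mybpc2, the fast myosin-binding protein, at -4.25. Mybpc2 overlaps Fam71e1 on the other strand, and their reads cannot be told apart. The Z-disc gene Myoz1 and the light chain gene Myl1 followed at -2.14 and -1.90. In FPKM, which is scaled to length, Tnnc2 in SOL (7402 on average) remained above Tnnc1 in SOL (2395), whereas the SOL level of Myh7 (1872) was close to that of Myh2 (2328).

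**Figure D1:**
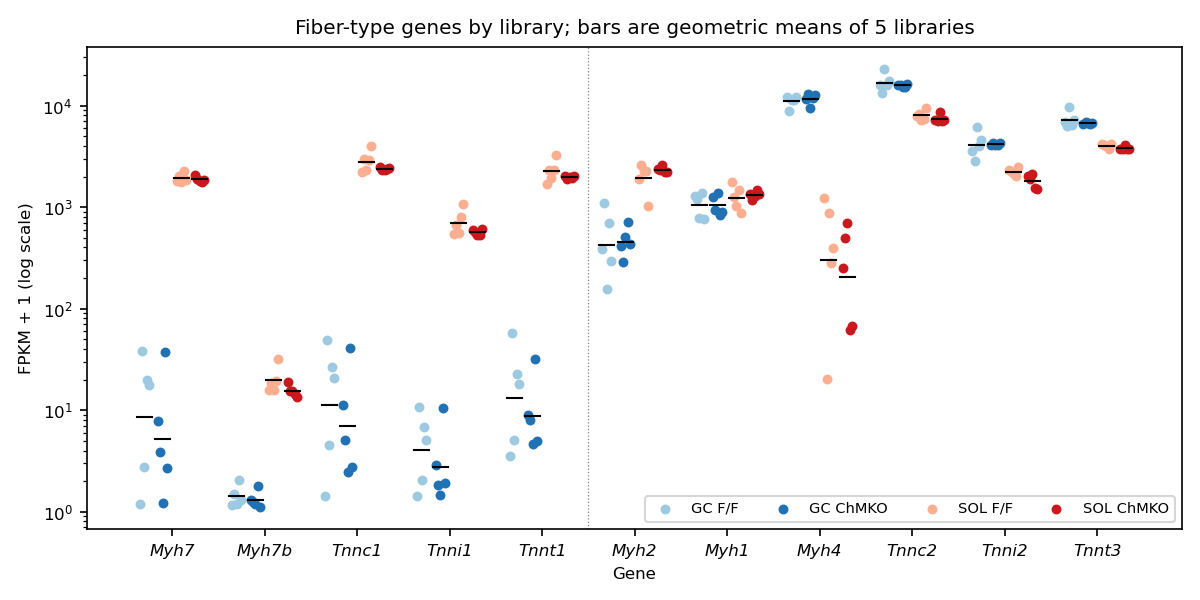
FPKM + 1 on a log axis of the 11 fiber-type genes used by the study, slow genes left and fast genes right of the dotted line. Each point is 1 library and each bar the geometric mean of the 5 libraries of a muscle and genotype. Points of SOL lie above those of GC for the slow genes and Myh2 in ChMKO mice, below for Myh4 and the fast troponins, and overlap for Myh1.

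Of 22 calcium-handling genes, 3 were called higher and 8 lower, against 4.82% and 2.98% of all genes, with a median of -0.53. Atp2a2 encodes SERCA2, the calcium pump of slow and cardiac muscle. It measured 13.7, 13.2, 8.61, 46.2 and 13.7 FPKM in GC and 1407, 1250, 1146, 1271 and 1259 FPKM in SOL. The groups were far apart, with GC of mouse 72 the highest of its group, and the difference was 6.22 ± 0.28 (SE) (limma adjusted p = 6.42e-06). Its fast counterpart Atp2a1 fell by 1.52, from a mean of 12340 to 4295 FPKM. Calsequestrins, which store calcium, split in the same way, with Casq2 at 3.87 and Casq1 at -1.76.

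Small regulators of the pump moved in opposite directions. Sln, sarcolipin, measured 1.68, 2.40, 2.07, 1.32 and 1.12 FPKM in GC and 92.5, 119.8, 102, 97.4 and 207 FPKM in SOL. It was near 1 to 2 FPKM in every GC library and at least 92.5 in every SOL library, with SOL of mouse 74 the highest, a difference of 5.47 ± 0.22 (SE) (limma adjusted p = 4.63e-06). Mrln, which encodes the pump inhibitor myoregulin, fell by 2.33. Pln, phospholamban, was 0.95, which passed the adjusted p but not the fold limit, and was called without mouse 60 or mouse 61 (1.03 in both).

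Pvalb encodes parvalbumin, the calcium buffer of fast fibers. It measured 6230, 6054, 6082, 5141 and 6176 FPKM in GC and 208, 297, 339, 201 and 238 FPKM in SOL. GC of mouse 72 was the lowest of its group, and no SOL library came near the GC range. The difference was -4.55 ± 0.11 (SE) (limma adjusted p = 1.99e-06). The voltage sensor gene Cacna1s and the release channel gene Ryr1 differed little, at -0.42 and -0.49, both past the adjusted p alone, while the channel subunit gene Cacng1 fell by 1.92.

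Of 15 excitability genes tested (Abcc8 was below the filter), 3 were called higher and 2 lower, against 4.82% and 2.98% of all genes. Beta subunits of the sodium pump moved in opposite directions: Atp1b1 rose by 2.50 and Atp1b2 fell by 3.37. The potassium channel gene Kcnc4 fell by 1.79. The chloride channel gene Clcn1, at -0.94, passed the adjusted p within the fold limit, and was called after rescaling (-1.12) and without mouse 60 (-1.01).

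Most glycolytic genes were lower in SOL. Of 23 tested, 14 were called lower and 2 higher, against 2.98% and 4.82% of all genes, with a median of -1.24. Gpd1, the cytosolic glycerol phosphate dehydrogenase, measured 279, 339.7, 318, 303 and 303 FPKM in GC and 34.3, 38.7, 44.9, 29.4 and 30.6 FPKM in SOL. The groups did not overlap and the difference was -3.10 ± 0.09 (SE) (limma adjusted p = 1.99e-06). Its mitochondrial partner Gpd2 fell by 2.94. Pfkfb3, which makes the activator of phosphofructokinase, fell by 3.61, with GC of mouse 60 standing above the other 4 (66.5 against 28.1 to 30.5 FPKM). Slc16a3, the lactate exporter MCT4, fell by 2.81 and muscle enolase Eno3 by 2.18.

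The 2 glycolysis members called higher act on lactate uptake and use. Ldhb, the lactate dehydrogenase subunit of oxidative muscle, measured 60.99, 49.4, 88.8, 142 and 63.4 FPKM in GC and 917, 850.3, 759, 789.6 and 814 FPKM in SOL. No values overlapped and the difference was 3.44 ± 0.22 (SE) (limma adjusted p = 2.36e-05). Slc16a1, the lactate transporter MCT1, rose by 1.52, and Ldha, the subunit of glycolytic muscle, fell by 1.62. The hexokinase genes, whose products feed the pathway, were higher in SOL, Hk1 at 0.70 and Hk2 at 0.49, both past the adjusted p alone. The glucose transporter gene Slc2a4 was at -0.12 and did not pass (limma adjusted p = 0.362).

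Of the glycogen genes, those lower in SOL stood above the share of all genes, and those higher were near it. Of 14, 6 were called lower and 1 higher, against 2.98% and 4.82% of all genes, and by adjusted p alone 9 were lower and 5 higher, against 16.1% and 39.5%. The genes called lower included the phosphorylase kinase subunits Phka1 (-2.54), Phkg1 (-2.23) and Phkb (-2.09), the phosphorylase gene Pygm (-2.36) and the phosphoglucomutase gene Pgm2 (-2.13). The gene called higher was the branching enzyme gene Gbe1 (1.44), and the other 4 higher by adjusted p were Ugp2 (0.70), Pgm1 (0.62), the glycogen synthase gene Gys1 (0.54) and the glycogenin gene Gyg (0.38).

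Mitochondrial genes were higher in SOL, mostly by less than the fold limit. Of 79 respiratory chain subunits, 73 were higher and 0 lower by adjusted p, against 39.5% and 16.1% of all genes, with a median of 0.64 (0.45 rescaled). Only 6 of the 79 were called higher and 0 lower, against 4.82% and 2.98% of all genes. They were Ndufb3 (1.33), Cox8a (1.19), Cox6a1 (1.11), Sdhb (1.099), Atp5h (1.09) and Atp5g3 (1.04). The last 4 fell short of the fold limit after rescaling. Of 27 genes of pyruvate entry and the TCA cycle, 22 were higher and 1 lower by adjusted p, against 39.5% and 16.1%, with a median of 0.56.

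Idh2, the mitochondrial isocitrate dehydrogenase that makes NADPH, stood out from the cycle. It measured 42.9, 35.4, 49.5, 80.9 and 44.9 FPKM in GC and 589, 496, 442, 472 and 505 FPKM in SOL. The groups did not overlap and the difference was 3.33 ± 0.18 (SE) (limma adjusted p = 1.08e-05). The malate shuttle genes Mdh1 and Got1 rose by 1.57 and 1.09, and the call of Got1 was lost after rescaling (0.90) and without mouse 60 (0.99). Citrate synthase, Cs, differed by 0.38, past the adjusted p alone.

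Genes of fatty acid use had a higher median than the respiratory chain. Of 30, 19 were called higher and 1 lower, against 4.82% and 2.98% of all genes, with a median of 1.25. Lpl, the lipase that frees fatty acids from circulating lipoproteins, measured 70.8, 58.8, 96.1, 110.5 and 57.01 FPKM in GC and 668, 638, 618, 678 and 615 FPKM in SOL, a difference of 3.06 ± 0.14 (SE) with no overlap (limma adjusted p = 6.42e-06). The fatty acid binding protein Fabp3 rose by 2.73 and the transporter Cd36 by 1.93. The oxidation enzymes Acaa2 and Acadl each rose by 1.88, and the lipid droplet protein Plin5 by 1.77.

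Ucp3, a mitochondrial carrier of muscle, was the exception of the list. It measured 44.1, 69.02, 95.1, 75.1 and 97.4 FPKM in GC and 12.0, 23.7, 37.3, 23.7 and 25.6 FPKM in SOL. The SOL values lay below all GC values, and mouse 59 was the lowest in both muscles. The difference was -1.63 ± 0.09 (SE) (limma adjusted p = 1.15e-05). In F/F mice it was -1.08, and the difference between genotypes (-0.55, 95% interval -0.85 to -0.25) did not pass adjustment over all genes (limma unadjusted p = 0.00175, adjusted p = 0.825).

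**Figure D2:**
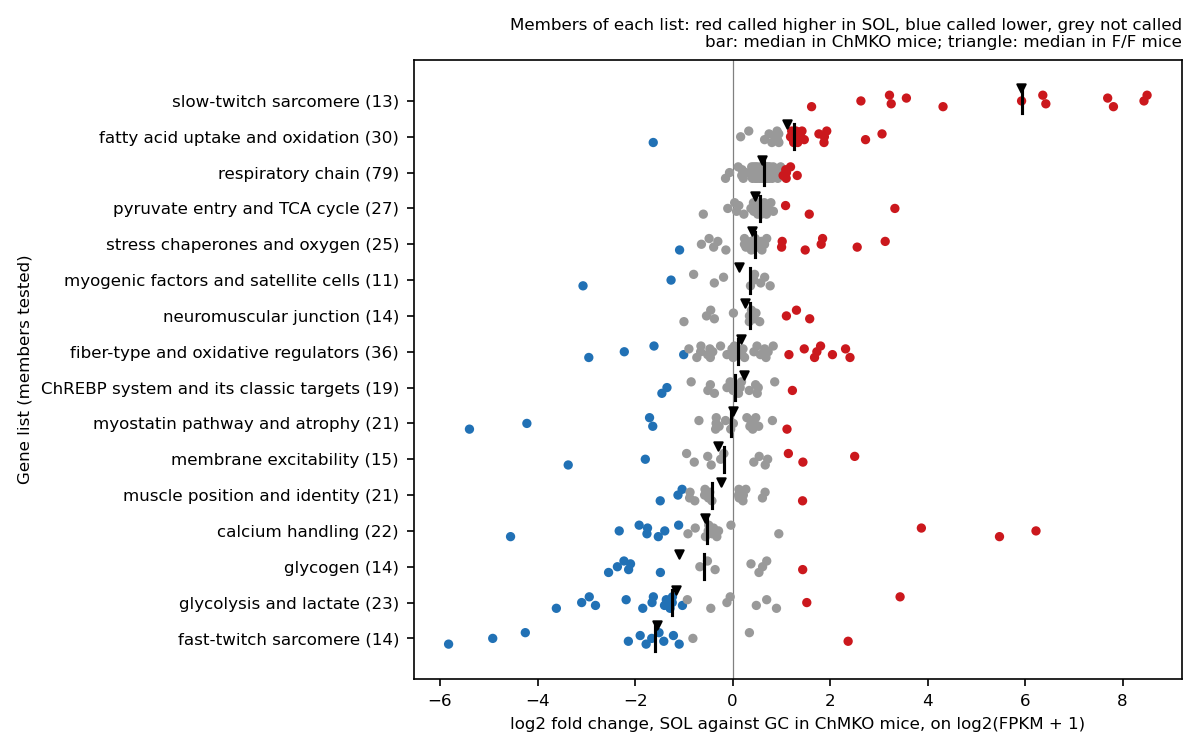
Each point is 1 gene, placed by its log2 fold change of SOL against GC in ChMKO mice on the log2(FPKM + 1) scale, with 1 row per gene list. Red and blue points are genes called higher and lower, bars are list medians in ChMKO mice and triangles those in F/F mice. The slow-twitch sarcomere list lies to the right (median 5.93) and the fast-twitch sarcomere, glycolysis and glycogen lists to the left (medians -1.58, -1.24 and -0.59).

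Regulators of fiber type and oxidative capacity held both directions. Of 36 tested (Vgll3 was below the filter), 8 were called higher and 4 lower, against 4.82% and 2.98% of all genes, and the list's median of 0.12 turned to -0.05 after rescaling. Vgll2, a cofactor of Tead factors, measured 37.1, 18.7, 47.6, 55.5 and 37.8 FPKM in GC and 244, 226, 163, 187 and 195 FPKM in SOL. All SOL values were above all GC values, a difference of 2.41 ± 0.25 (SE) (limma adjusted p = 0.000197). The nuclear receptor genes Esrrb, Esrrg and Ppara rose by 2.32, 2.05 and 1.80. Perm1, a muscle partner of PGC-1 and ERR factors, rose by 1.73, Rcan1, a calcineurin target and inhibitor, by 1.68, and Prox1, a slow-fiber homeobox gene, by 1.47.

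Ppargc1a, which encodes PGC-1alpha, measured 2.44, 2.03, 2.04, 2.95 and 2.63 FPKM in GC and 3.21, 3.20, 4.64, 15.9 and 13.8 FPKM in SOL. The groups did not overlap, but SOL of mice 72 and 74 were far above the other 3 SOL libraries. The difference was 1.16 ± 0.29 (SE) (limma adjusted p = 0.0117), and its call was lost without mouse 72 (0.92) or mouse 74 (0.94).

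Mafa and Maf, large Maf factors that promote the IIb program, fell in SOL. Mafa measured 34.1, 35.9, 49.3, 42.2 and 62.5 FPKM in GC and 6.55, 3.92, 4.58, 4.83 and 4.39 FPKM in SOL, a difference of -2.95 ± 0.17 (SE) with no overlap (limma adjusted p = 1.42e-05). Maf fell by 2.22. Eya4, a transcriptional cofactor, fell by 1.61. Ppp3cb, a calcineurin subunit gene, was also called lower, at -1.0025. Its call was lost without mouse 59 (-0.979), 60 (-0.993), 61 (-0.988) or 74 (-0.996). Sox6, a repressor of slow genes, was at -0.90, past the adjusted p alone, and was called after rescaling (-1.04).

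The ChREBP system is next, beginning with the targeted gene. The promoter window of its more upstream start is shown because it carries the box that ChREBP-type factors bind, in capitals here.

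Mlxipl: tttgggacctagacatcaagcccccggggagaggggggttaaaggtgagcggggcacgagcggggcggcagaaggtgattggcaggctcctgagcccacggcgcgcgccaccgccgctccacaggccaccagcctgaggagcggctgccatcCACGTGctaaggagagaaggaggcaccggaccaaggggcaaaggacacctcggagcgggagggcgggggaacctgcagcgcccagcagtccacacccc

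This window is chr5:135089640-135089889 (GRCm38, plus strand), at the more upstream annotated start. CACGTG occurs once in it and not in the window of a second, more downstream start (chr5:135106641-135106890). Which start the reads of these muscles came from was not tested. Of the 9217 matched genes tested, 10.1% held CACGTG, as did 46 of the 420 called higher and 21 of the 277 called lower. Of all promoter windows searched, 6.02% held it. The full paired box of ChREBP (2 copies of CACGTG with 5 bases between them), searched without mismatch, was in 0 windows, which says only that these letters are not there.

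Mlxipl (chr5:135089891-135138382) measured 12.5, 14.8, 18.1, 18.5 and 14.8 FPKM in GC and 30.0, 46.1, 31.7, 41.0 and 43.0 FPKM in SOL of ChMKO mice. All SOL values exceeded all GC values, and the difference was 1.23 ± 0.12 (SE) (limma adjusted p = 0.000125). In F/F mice the gene was 20.4 to 30.3 FPKM in GC and 43.8 to 64.1 FPKM in SOL, a muscle difference of 1.07. Mean FPKM in ChMKO mice was below that in F/F mice in GC (15.7 ± 2.53 against 24.9 ± 4.10, SD, n = 5) and in SOL (38.4 ± 7.13 against 53.4 ± 7.51, SD, n = 5), and no test of that genotype effect was made. Reads from the other exons count toward these values, so they do not check the deletion of exon 8. The higher level in SOL was thus seen with and without the intact gene, and the difference between genotypes was 0.15 (95% interval -0.27 to 0.58).

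The relatives of ChREBP differed little. Mlxip measured 13.6, 14.2, 12.7, 14.4 and 18.1 FPKM in GC and 10.7, 11.5, 10.3, 11.2 and 11.2 FPKM in SOL. The SOL values were all lower, by a small margin, and the difference of -0.37 ± 0.07 (SE) passed the adjusted p but not the fold limit (limma adjusted p = 0.00383). Mlx was 3.00 to 3.40 FPKM in GC and 3.21 to 4.10 FPKM in SOL, overlapping, with a difference of 0.12 that did not pass (limma adjusted p = 0.204) and turned to -0.02 after rescaling.

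Of 19 genes of the ChREBP list tested (Pklr, Elovl6 and Fgf21 were below the filter), 1 was called higher (Mlxipl) and 2 lower, against 4.82% and 2.98% of all genes, and the median of 0.05 turned to -0.11 after rescaling. Me1, the malic enzyme that makes NADPH for lipid synthesis, measured 77.2, 77.4, 69.4, 70.6 and 81.6 FPKM in GC and 27.6, 26.1, 25.9, 28.4 and 26.4 FPKM in SOL. The 2 ranges were narrow and well apart, with a difference of -1.45 ± 0.06 (SE) (limma adjusted p = 5.60e-06), and it was -1.53 in F/F mice. Srebf1, which encodes the lipogenic factor SREBP-1, was 12.8 to 17.2 FPKM in GC and 4.91 to 5.54 FPKM in SOL, a fall of 1.35 with no overlap (limma adjusted p = 1.79e-05). The muscle difference of Srebf1 in F/F mice was -0.96.

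Classic lipogenic targets did not follow 1 direction. Fasn was at 0.05 and Acacb at 0.16, neither past the test (limma adjusted p = 0.852 and 0.19), and both turned negative after rescaling (-0.11 and -0.03). Acaca and Acly were at 0.53 and 0.47, past the adjusted p alone. Scd1 spread from 9.23 to 33.5 FPKM in GC and from 14.4 to 62.6 FPKM in SOL, so its 0.86 did not pass (limma adjusted p = 0.116), although it was called with mouse 60 left out (1.35). Txnip, a glucose-responsive target of the family, was 93.3 to 179 FPKM in GC and 147 to 226 FPKM in SOL, higher in SOL by 0.51 past the adjusted p alone (limma adjusted p = 0.000891). In F/F mice Txnip was at 0.00, and the difference between genotypes, 0.50 (95% interval 0.07 to 0.94), did not pass adjustment (limma adjusted p = 0.825).

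Among genes of limb position and muscle identity, those called lower stood above the share of all genes, and those called higher were near it. Of 21 tested of 28 listed, 3 were called lower and 1 higher, against 2.98% and 4.82% of all genes, with a median of -0.42. Hoxd9, a homeobox gene of limb patterning, measured 6.75, 10.6, 5.50, 11.7 and 10.6 FPKM in GC and 2.82, 2.82, 2.63, 1.65 and 2.57 FPKM in SOL, a difference of -1.48 ± 0.20 (SE) with no overlap (limma adjusted p = 0.000619). Hoxa11 and Hoxd8 fell by 1.12 and 1.04. The call of Hoxd8 was lost without mouse 60 (-0.93) and without mouse 72 (-0.96). Hoxd10 and Hoxa13, at -0.88 and -0.87, passed the adjusted p alone.

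Of 11 myogenic and satellite cell genes tested of 17 listed, 0 were called higher and 2 lower, against 4.82% and 2.98% of all genes. By adjusted p alone 6 were higher, among them Hey1 (0.77) and Heyl (0.66), and 4 lower, against 39.5% and 16.1%, with a median of 0.37. After rescaling 3 were higher and 5 lower, but the share of all genes by adjusted p was not computed for that fit. The genes called lower were Myh8 and Myod1, the fast-fiber-biased myogenic factor, which measured 15.2, 13.0, 23.6, 10.8 and 11.4 FPKM in GC and 6.67, 8.45, 6.32, 3.70 and 3.10 FPKM in SOL with no overlap and fell by 1.26 (limma adjusted p = 0.000557). Pax7, Pax3, Myf5 and Calcr, genes that mark satellite cells, were below the filter.

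Mstn and Mss51 were among the deepest falls. Mstn, the secreted inhibitor of muscle growth, measured 33.2, 39.7, 28.4, 22.4 and 29.8 FPKM in GC and 0.617, 0.744, 1.11, 0.590 and 0.392 FPKM in SOL. The SOL values were at or near 1 FPKM or less in all 5 mice, and the difference was -4.22 ± 0.13 (SE) (limma adjusted p = 2.32e-06). Mss51, a mitochondrial protein gene of glycolytic muscle, measured 191, 60.2, 203, 36.6 and 80.9 FPKM in GC and 1.35, 1.297, 2.42, 0.753 and 0.715 FPKM in SOL, a difference of -5.40 ± 0.27 (SE) (limma adjusted p = 8.29e-06). GC values of Mss51 varied widely between mice, yet no SOL value approached them. Acvr1b, a receptor of the pathway, fell by 1.64, and Fst, an extracellular antagonist of myostatin, rose by 1.12, a call lost after rescaling (0.99). Ddit4, an inhibitor of mTORC1, fell by 1.70. Of 21 genes of the list tested, 4 were called lower and 1 higher, against 2.98% and 4.82% of all genes, and the atrophy ligase genes Trim63 and Fbxo32 were at -0.14 and -0.28, of which the second passed the adjusted p alone.

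Of 25 genes for stress chaperones and oxygen, 7 were called higher (5 after rescaling) and 1 lower, against 4.82% and 2.98% of all genes, with a median of 0.47. Mb, myoglobin, was 784 to 1826 FPKM in GC and 7134 to 7673 FPKM in SOL, a rise of 2.56 ± 0.18 (SE) with no overlap (limma adjusted p = 3.16e-05). The small heat shock genes Hspb7, Cryab and Hspb6 rose by 3.13, 1.85 and 1.82, and catalase, Cat, by 1.49. The gene called lower was Nos1, the neuronal nitric oxide synthase anchored to the fiber membrane, at -1.09, which overlaps the non-coding genes Gm26995 and Gm30360 on the other strand.

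At the neuromuscular junction, 3 of 14 genes tested were called higher and 0 lower, against 4.82% and 2.98% of all genes. Chrna1, a subunit of the acetylcholine receptor, measured 2.93, 3.54, 2.47, 3.28 and 1.20 FPKM in GC and 11.5, 9.58, 9.54, 9.01 and 9.06 FPKM in SOL, a rise of 1.58 ± 0.14 (SE) with no overlap (limma adjusted p = 0.000103). Colq, which anchors acetylcholinesterase, rose by 1.31 and the receptor subunit gene Chrnd by 1.104, a call lost after rescaling (0.99). Ache itself lay just inside the fold limit (-0.997) and was called lower after rescaling (-1.16).

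The 8 genes that fell most were ranked among called genes that fell in all 5 mice with no overlap. They also included Odf3l2 (-5.44, from a mean of 71.8 to 0.614 FPKM) and Smox (-4.75, from 312 to 11.1 FPKM), the spermine oxidase gene.

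Markers of other cell types also differed between the muscles, and their part in the results above was not tested. Of 11 endothelial markers tested of 12, all 11 were higher in SOL by adjusted p and 4 were called (1 after rescaling), against 39.5% and 4.82% of all genes, with a median of 0.87, and their summed level was 78.7 to 113 FPKM in GC and 167 to 214 in SOL. Of 9 smooth muscle and pericyte markers, 4 were called higher, against 4.82% of all genes, and 0 after rescaling (summed level 89.5 to 107 against 163 to 226 FPKM). Of 5 red blood cell genes, 4 were called higher, against the same share, and also 4 after rescaling (64.0 to 98.0 against 154 to 321 FPKM). The alpha and beta globin genes come in near-identical pairs. Leaving out mouse 72 lowered the calls of the smooth muscle list from 4 to 2. These vascular lists thus moved in the same direction as the fatty acid and mitochondrial lists, and Lpl, Cd36 and Vegfa are expressed by more than 1 of these cell types.

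None of the 10 fibroblast, 7 tenocyte, 9 macrophage and leukocyte, 6 adipocyte and 5 Schwann cell markers tested was called in ChMKO mice, with list medians of -0.10, 0.37, -0.22, 0.64 and 0.71. By adjusted p, 2 fibroblast, 2 tenocyte, 1 adipocyte and 4 Schwann cell markers were higher, against 39.5% of all genes, and 2 macrophage markers lower, against 16.1%. These counts moved with single mice: without mouse 60, 6 of 6 adipocyte markers were higher by adjusted p and 2 were called, without mouse 59, 2 of 7 tenocyte markers were called, and without mouse 59, 60 or 74 no macrophage marker passed. After rescaling 6 of 9 macrophage markers were lower by adjusted p, but the share of all genes by adjusted p was not computed for that fit. Summed levels ran from 34.1 to 67.4 FPKM in GC and 42.6 to 175 in SOL for adipocytes, 104 to 377 and 158 to 247 for tenocytes, and 6.53 to 22.0 and 19.4 to 33.3 for Schwann cells. Skeletal muscle markers were abundant in every library, and their summed level was 33900 to 38470 FPKM in GC and 24650 to 27620 in SOL of ChMKO mice, lower in SOL with no overlap. Of the 8 markers, Ckmt2 was called higher (1.301) and Ckm lower (-1.37), 3 others were higher and 1 lower by adjusted p alone, and the actin gene Acta1 was at -0.20 (limma adjusted p = 0.152).

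Most of these muscle differences were also present with functional ChREBP. In F/F mice, fitted alone, 36.8% of the genes were higher and 12.1% lower by adjusted p, and 1056 of 13235 genes were called (7.98%), 714 higher (5.39%) and 342 lower (2.58%). Called in both genotypes in the same direction were 813 genes, or 79.7% of the ChMKO list and 77.0% of the F/F list, with 508 higher and 305 lower, and 0 were called in opposite directions. After rescaling, the share of F/F calls that were higher moved from 67.6% to 47.4%. The fits share no library. Across the 12954 genes tested in both, the log2 fold changes correlated at 0.945 as a description across genes, which are not independent replicates. Without F/F mice 69 and 71, 864 genes were called in F/F mice, 558 higher and 306 lower.

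**Figure D3:**
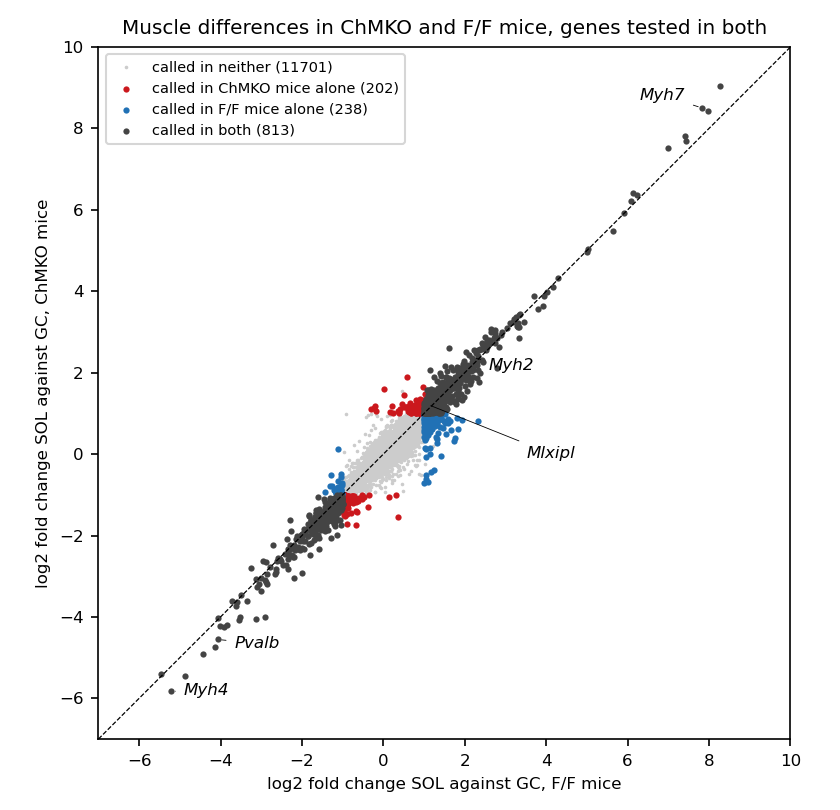
Log2 fold change of SOL against GC in ChMKO mice (y axis) against that in F/F mice (x axis), 1 point per gene tested in both. The dashed line marks equal values. Genes called in both (dark, 813) lie along it in 2 opposite quadrants, and genes called in 1 genotype alone (red, 202, and blue, 238) flank them.

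The lists are given side by side here, and no list was tested between genotypes. Of all genes tested in F/F mice, 5.39% were called higher and 2.58% lower. The slow-twitch list had 13 of 13 called higher in F/F mice and a median of 5.92, against 5.93 in ChMKO mice. The fast-twitch list had 10 of 14 called lower and a median of -1.56 against -1.58. Glycolysis had 13 of 23 called lower and a median of -1.16 against -1.24, and fatty acid genes 20 of 30 called higher and 1.12 against 1.25. The respiratory chain had a median of 0.61 against 0.64. Glycogen genes had 7 of 14 called lower and a median of -1.10 against -0.59. Without F/F mice 69 and 71 the F/F medians were 5.28, -1.41, -0.97, 1.06, 0.60 and -0.90 in the order of these 6 lists. The adipocyte list had a median of 1.36 and 5 of 6 called higher in F/F mice against 0.64 and 0 in ChMKO mice, and the tenocyte list had 1.08 against 0.37. Without F/F mice 69 and 71 these F/F medians were 1.71 and 1.13.

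The difference itself was tested for 13176 genes as the ChMKO minus the F/F muscle effect, with a block on mouse. By limma's adjusted p, 0 genes passed (0% called), 765 had an unadjusted p under 0.05 (5.81%), and the smallest adjusted p was 0.154. Without F/F mice 69 and 71 the count was also 0. Of the 1019 genes called in ChMKO mice that had this test, 881 (86.5%) had a 95% interval of the difference inside 1 log2 unit in both directions, and the median size of the difference was 0.15. The others were not bounded so closely, and these include some of the most changed genes, though not Mss51, Mstn and Tpm3. For Myh7 the difference was 0.67 with an interval of -1.57 to 2.90, and for Myh4 it was -0.61 with -2.85 to 1.63, so changes of more than 2-fold in either direction were within reach of the error. For Mlxipl, Me1, Tnnc2, Tnnt3, Gpd1 and Pfkfb3 the intervals stayed inside 1 unit.

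**Figure D4:**
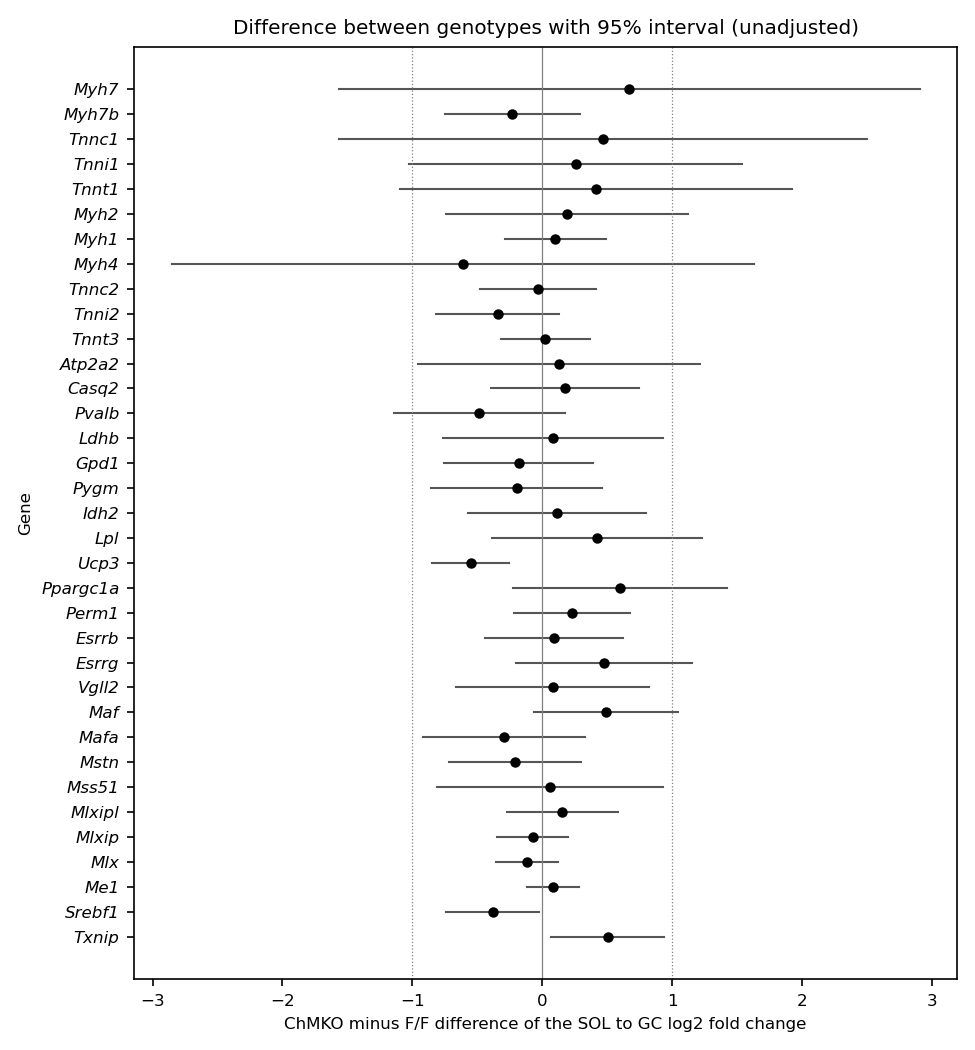
Points give the ChMKO minus F/F difference of the SOL to GC log2 fold change for named genes, and lines its 95% interval without adjustment for the number of genes. Dotted lines mark 1 log2 unit. Intervals of Myh7, Tnnc1, Tnni1, Tnnt1 and Myh4 reach past both dotted lines, and those of Ucp3, Srebf1 and Txnip exclude 0. None of these genes passed the adjusted p.

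Genes called in 1 genotype alone mostly had the same sign in the other. Of 207 called in ChMKO mice alone, 195 had the same sign in F/F mice, 170 of them with a limma adjusted p under 0.05, and 5 were below the F/F filter. Of 243 called in F/F mice alone, 228 had the same sign in ChMKO mice, 199 of them with a limma adjusted p under 0.05. The 5 called in ChMKO mice with the widest gap between genotypes were short RNAs or gene segments: Igkj5, Mir7646, TrnS2, Mir99a and TrnH, at -1.55, 1.59, 1.11, 1.18 and 1.13 in ChMKO mice and 0.36, 0.03, -0.30, -0.20 and -0.22 in F/F mice. The 5 called in F/F mice alone with the widest gap were Snord45b, Mir7036b, Snord34, Igkc and Mir7211, at 1.105, 1.01, 1.05, 1.25 and 1.17 in F/F mice against -0.67, -0.70, -0.61, -0.40 and -0.45 in ChMKO mice. FPKM of genes this short rests on few fragments, and none of the 10 passed adjustment in the test of the difference.

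The 5 genes with the smallest p in the test of the difference were Gm38954, Mir7045, Gm31607, Snord34 and Nab2, with differences of -1.29, -1.20, -0.63, -1.66 and -0.56. Nab2, a corepressor of EGR factors, overlaps Stat6 on the other strand, and its ChMKO value of 0.12 turned to -0.03 after rescaling. Gm38954 is a non-coding gene at chr7:19405689-19408309 on the plus strand, upstream of Ckm (chr7:19411094-19421583), the muscle creatine kinase gene, which overlaps A930016O22Rik on the other strand and whose promoter drives the Cre. It measured 10.9, 13.1, 7.98, 8.85 and 9.68 FPKM in GC and 2.88, 3.09, 2.61, 4.88 and 4.42 FPKM in SOL of ChMKO mice and was listed at 0 in all 10 F/F libraries. Every ChMKO library thus held it and no F/F library did, and SOL lay below GC in every mouse. Its muscle difference in ChMKO mice was -1.29 ± 0.15 (SE) (limma adjusted p = 0.000368), beside -1.37 ± 0.08 (SE) for Ckm (limma adjusted p = 1.35e-05). With F/F libraries at 0, its difference between genotypes (-1.29) restates the ChMKO muscle difference and is no separate test.

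**Figure D5:**
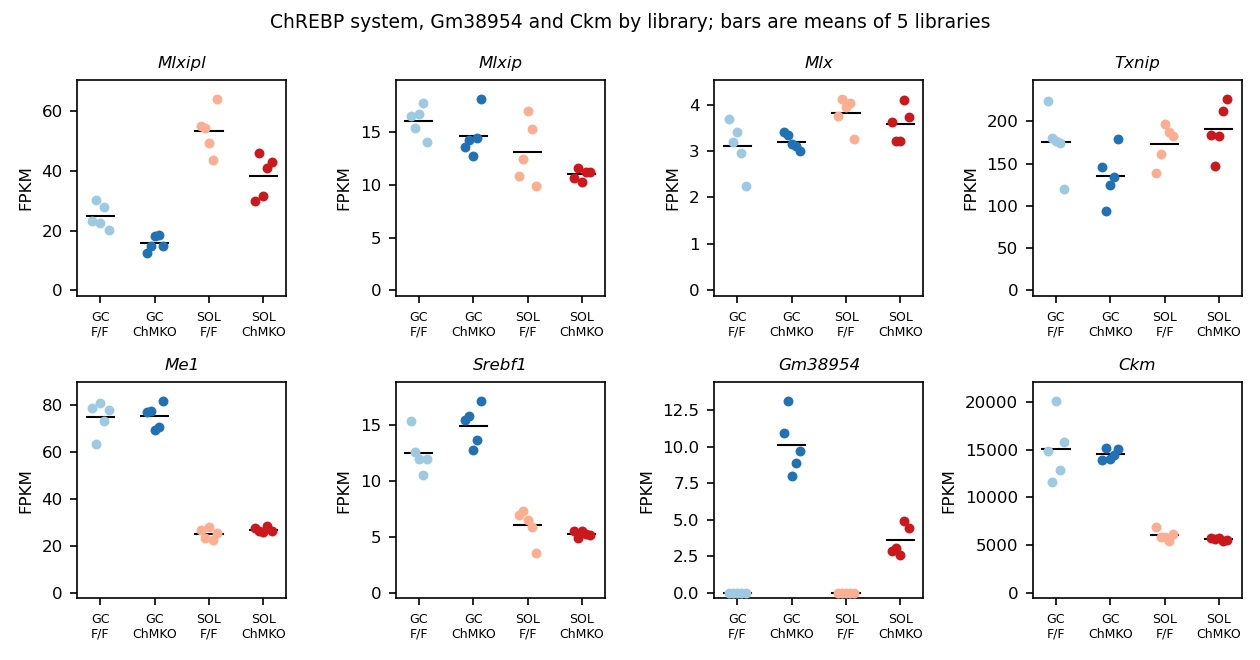
FPKM of the ChREBP system genes Mlxipl, Mlxip, Mlx, Txnip, Me1 and Srebf1, and of Gm38954 and Ckm, by library. Each point is 1 library and each bar the mean of 5. Mlxipl is higher and Me1 and Srebf1 are lower in SOL than in GC in both genotypes, and Gm38954 is above 0 in ChMKO libraries alone.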

How the data were processed

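Libraries were made from enriched mRNA with a NEBNext Ultra kit. The authors deposited FPKM per gene for 20 chow libraries, and the submitters' processing notes name fastp 0.18.0, Bowtie2 2.2.8, HISAT2 2.1.0, StringTie 1.3.1 and RSEM. They name GRCm39, whereas gene positions in the table match GRCm38, the build used here. Neither strand use nor the handling of multi-mapped reads is given in the sources used here. The 3 other tables were not used.

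Of 30250 entries, 1011 repeats of a symbol were left out. Tests used limma 3.58.1 in R 4.3.3 on log2(FPKM + 1), with an intensity trend, a mouse-number block and Benjamini-Hochberg adjustment over every gene averaging 0.5 FPKM or more. Depth was estimated from low values. The scripts were tested on simulated data. The study's methods call the replicates biological, and the labels do not say that a number marks 1 mouse, as it was read here. The title of 1 F/F SOL library carries 59 and its column 69, and the column was followed.

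Named genes were the 11 fiber markers and Mlxipl, Mlxip and Mlx, the 8 that rose and the 8 that fell most without overlap, up to 6 per list by size of change, the 5 with the smallest p for the difference between genotypes, and the 5 widest gaps among calls of each genotype. Other genes were named after their values were seen. Members and lists were chosen with earlier results of these data known. Some genes that the rule names are not reported here.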

Additional observations from a re-analysis of the deposited data

Results flagged for a closer look

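Dixon's gap test, with a critical value of 0.71 for 5 samples, picked out 23 of the 242 groups of ChMKO libraries tested over the named genes (9.5%), and chance alone picks about 1 in 20. The GC library of mouse 72 accounted for 12 of the 23. It was the highest of its group for slow-fiber genes, with Myh7 at 36.2 FPKM against 0.227 to 6.80 in the other 4, Mhrt at 70.2, Gm31251 at 8.5, Tnnc1 at 40.1, Tnnt1 at 30.5, Tnni1 at 9.49, Myh7b at 0.809, Myl3 at 182, Tpm3 at 11.2 and Atp2a2 at 46.2 FPKM. It was also the highest for Nos1 (15 against 11.1 to 12.2 FPKM) and the lowest for the fast-fiber gene Pvalb (5140 against 6050 to 6230 FPKM). These genes are not independent of each other.

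The other picks were spread over 7 libraries. The SOL library of mouse 61 was the highest for 2 fast troponins, Tnnc2 (8560 against 7010 to 7250 FPKM) and Tnnt3 (4090 against 3730 to 3770 FPKM). GC of mouse 60 was the highest for Pfkfb3 (66.5 against 28.1 to 30.5 FPKM) and Myoz1 (1570 against 1380 to 1440 FPKM), and its SOL for Eno3 (51.2 against 25.6 to 29.6 FPKM). GC of mouse 74 was the highest for Atp1b2 (117 against 84 to 89.1 FPKM), and its SOL for Sln (207 against 92.5 to 120 FPKM) and Hoxd8 (5.82 against 4.69 to 4.9 FPKM). SOL of mouse 59 was the highest for Suclg2 (23.7 against 20.5 to 21 FPKM) and Chrna1 (11.5 against 9.01 to 9.58 FPKM). SOL of mouse 72 was the lowest for Hoxd9 (1.65 against 2.57 to 2.82 FPKM).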

How the results depend on the processing

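With a pseudocount of 0.1, 1709 genes were called in ChMKO mice (1137 higher), 1938 in F/F mice (1413 higher and 525 lower) and 1345 in both. With a mean of at least 5 FPKM the counts were 667 (413 higher and 254 lower), 693 (457 higher) and 540, in part because fewer genes were tested. Rescaling left 446 genes higher in F/F mice and turned Mlx to -0.024 and Nab2 to -0.026, neither past the test. Without 1 mouse at a time, 982 to 1090 genes were called in ChMKO mice, 946 to 1151 in F/F mice and 760 to 857 in both, and without F/F mice 69 and 71, 700 in both.

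The test of the difference called 0 genes in the fit reported and 1, Gm38954, after rescaling, with no replicate block, with the block as a random effect and without ChMKO mouse 72, but Gm38954 was listed at 0 in every F/F library, so these calls restate its ChMKO muscle difference. Without F/F mouse 71 it called 1, Slc25a30. Over the fits that left out 1 mouse the count was 0 to 1.

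The pairing rests on the numbers alone. Deviations of same-numbered libraries correlated at 0.02 to 0.05 in ChMKO mice, where 1 of 5 libraries was closest to its own number, and at -0.02 to 0.32 in F/F mice, where 4 of 5 were and all but 69 exceeded 0.1. The numbers are thus not shown to pair the ChMKO samples, and in F/F mice 4 of 5 pairs hint at it. With no block, 1014 genes were called in ChMKO mice (627 higher and 387 lower), 1042 in F/F mice and 808 in both.

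Of 121 named genes with a fit, 96 kept direction and call under every alternative run. A pseudocount of 1 understates the change of low genes, and short RNAs rest on few fragments.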

Other observations

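Of the mitochondrial genome, all 13 mRNAs tested were higher in SOL of ChMKO mice by limma's adjusted p and 4 of them passed the fold limit, against 39.5% and 4.82% of all genes, with a median log2 difference of 0.94, and 3 were higher by adjusted p in F/F mice (36.8% of all genes) with a median of 0.58. Of the 2 rRNAs, 1 was higher by adjusted p and 0 were called (median 0.40). Of 22 mitochondrial tRNAs, 14 were called higher in ChMKO mice and 19 by adjusted p (median 1.09), and in F/F mice 4, against 5.39% of all genes, and 10 by adjusted p (median 0.74). The value was above 0 for 21 and 19 of the 22. TrnS2 and TrnH are among them, and neither passed adjustment in the test of the difference between genotypes. These genes were grouped after their values were seen. The tRNAs are short RNAs, which rest on few fragments. The counts of both genotypes were not recomputed after rescaling or without F/F mice 69 and 71.

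Polyamine genes were examined because Smox, the spermine oxidase gene, was among the deepest falls, so this list was chosen after values were seen. Of 12 tested, 5 were called lower in SOL of ChMKO mice, Smox included, and 0 higher, against 2.98% and 4.82% of all genes. They were Smox (-4.75), the S-adenosylmethionine decarboxylase genes Amd1 (-4.03) and Amd2 (-2.37), which are near-identical, the ornithine decarboxylase gene Odc1 (-1.87) and the spermine synthase gene Sms (-1.27). By limma's adjusted p alone, 4 were higher, against 39.5% of all genes: Oaz2 (0.44), Sat1 (0.40), Paox (0.32) and Srm (0.31). In F/F mice the falls of Smox, Amd1 and Odc1 were -4.14, -4.05 and -1.36.

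Subunit genes of the AMP-activated protein kinase, a sensor of cellular energy, were examined in the same way. Of 7 tested, 2 were called lower in SOL (2.98% of all genes), Prkag3 (-3.61) and Prkab2 (-2.89), and they were -3.35 and -2.63 in F/F mice. By adjusted p alone, Prkaa2 (-0.55) and Prkag2 (-0.39) were lower and Prkag1 (0.47) and Prkaa1 (0.32) were higher.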
